A study of Mus musculus with 6 samples.

Results

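The 48 genes described here are cell cycle and proliferation genes, found in the count matrix by their symbols in the GENCODE M21 mouse annotation. All 48 were among the 55536 genes of the matrix, and all 48 were among the 15712 genes that passed the filter on low counts. They were divided by role into 5 cyclins and kinases of G1, 16 genes of the G1/S transition and DNA replication, 23 genes of G2 and mitosis, and 4 inhibitors and brakes. RNA was sequenced from perichondrium, the fibrous and cellular sheath around cartilage, dissected off the limb bones of 4-day-old (postnatal day 4) mice. There were 3 wild-type libraries (WT below) and 3 of genotype Fbn1Scx-/- (mut, or knockout, below), each named by the first number in its title (mut-596, mut-597, mut-795, WT-596, WT-597, WT-795), and the values of a group are given in that order. The knockout titles differ: that of mut-596 ends in ScxCRE, and those of mut-597 and mut-795 end in PC-Koscx. What this difference stands for is not stated. In the knockout, Fbn1, the gene of the microfibril protein fibrillin-1, is deleted by a Cre recombinase driven by scleraxis (Scx), a tendon and ligament gene, so deletion is limited to cells with a history of Scx expression. The sources used here give neither the strain nor whether each library is a separate animal, so p-values measure only library-to-library spread, which may be technical.

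A cell commits to division in G1, when D-type cyclins with CDK4 or CDK6, and then cyclin E with CDK2, phosphorylate the RB protein and release E2F factors. E2F factors switch on genes that license and copy DNA, and later the MuvB complex, with B-MYB and FOXM1, switches on genes of G2 and mitosis. In long bones the dividing cells of the perichondrium supply the bone collar and the growing sheath, beside the columns of dividing chondrocytes in the growth plate.

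The promoters of both waves are shown for short words whose frequency differs between the G1/S and G2/M classes, though no word separates them fully. The RefSeq table (GRCm38.p6, 250 bases before to 50 bases after the start) held 38 of the 48 members and lacked Ccna2, Ccnd1, Ccnd2, Ccne2, Cdc25c, Aurkb, Kif20a, Mcm4, Rb1 and Tpx2. The cell cycle homology region, searched as TTTGAA on both strands, was present in 13 of 18 G2/M promoters, 1 of 14 G1/S promoters and 17.9% of all 32851 promoters in the table. The E2F words TTTCGCGC, TTTGGCGC and TTTCCCGC, on both strands, were in 7 of 14 G1/S promoters, 1 of 18 G2/M promoters and 1.84% of all promoters. CCAAT, the box bound by NF-Y, was in 16 of 18 G2/M promoters, 9 of 14 G1/S promoters and 37.4% of all. A gene with more than 1 promoter entry counted when any entry held the word, and the E2F words can overlap each other, as they do in Mcm5 and Mcm6. The 160 bases before the start of 4 G2/M genes and 2 G1/S genes follow, with every match to these motifs in capitals. Cdc20, Top2a, Cdk1 and Ube2c have TTTGAA or its reverse TTCAAA close to the start with CCAAT boxes near it, Cdk1 also has an E2F word, and Mcm5 and Mcm6 have overlapping E2F words. They lie at chr11:99024190-99024349 (minus strand) for Top2a, chr10:69352913-69353072 (minus) for Cdk1, chr4:118437344-118437503 (minus) for Cdc20, chr2:164769769-164769928 (plus) for Ube2c, chr8:75109349-75109508 (plus) for Mcm5 and chr1:128359706-128359865 (minus) for Mcm6.
Top2a: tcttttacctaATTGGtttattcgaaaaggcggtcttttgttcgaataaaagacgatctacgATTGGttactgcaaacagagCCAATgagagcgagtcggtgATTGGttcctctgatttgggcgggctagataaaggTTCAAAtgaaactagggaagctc
Cdk1: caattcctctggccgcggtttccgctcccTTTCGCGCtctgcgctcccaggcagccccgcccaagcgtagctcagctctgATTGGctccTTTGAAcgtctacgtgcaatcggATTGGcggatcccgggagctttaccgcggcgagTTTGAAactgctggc
Cdc20: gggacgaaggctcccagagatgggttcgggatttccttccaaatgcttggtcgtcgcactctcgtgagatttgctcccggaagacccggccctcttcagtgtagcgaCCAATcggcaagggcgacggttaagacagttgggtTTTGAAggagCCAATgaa
Ube2c: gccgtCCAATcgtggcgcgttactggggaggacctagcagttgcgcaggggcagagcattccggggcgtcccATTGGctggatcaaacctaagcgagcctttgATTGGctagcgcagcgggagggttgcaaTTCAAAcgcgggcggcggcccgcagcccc
Mcm5: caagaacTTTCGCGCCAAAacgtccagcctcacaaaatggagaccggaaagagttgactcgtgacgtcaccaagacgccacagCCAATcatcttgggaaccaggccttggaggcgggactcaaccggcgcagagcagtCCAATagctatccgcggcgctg
Mcm6: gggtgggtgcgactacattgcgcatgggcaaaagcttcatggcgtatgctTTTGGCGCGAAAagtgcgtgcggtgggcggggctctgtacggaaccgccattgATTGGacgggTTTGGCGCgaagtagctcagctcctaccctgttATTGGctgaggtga

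No member passed the test of knockout against wild type. By edgeR's quasi-likelihood test, with Benjamini-Hochberg adjustment over all genes tested, 0 of 48 members were called, against 0.00636% of all genes, which is Fbn1 alone. DESeq2 also called 0 members. At an unadjusted p under 0.05 there were 3 members by edgeR, Rb1 and Nusap1 above 0 and Aurka below, against 10.5% of all genes (3.37% higher and 7.12% lower in knockout). The groups did not overlap for 4 members, Rb1 and Nusap1 with knockout above and Aurka and Mcm7 with knockout below, against 11.9% of all genes (5.66% above and 6.22% below). The members' share at an unadjusted p under 0.05, 6.25%, lay below that of all genes with these settings, but not with 4 alternatives: it was 17 of 48 (35.4%, against 29.5% of all genes) without WT-795, 6 of 48 (12.5%, against 11.3%) with limma-voom, 8 of 48 (16.7%, against 9.22%) with no filter on low counts and 5 of 48 (10.4%, against 9.46%) with the title number as a replicate block. Fitted log2 fold changes of the members ran from -0.88 to 0.60 with a median of 0.07, beside 0.01 over all genes tested, and 27 lay above 0 and 21 below, while 50.9% of all genes tested lay above 0. The authors' deposited table of 1643 genes lists 3 members, with log2 fold changes of 0.59 for Rb1, 0.56 for Nusap1 and -0.90 for Aurka. Of its genes, 1193 were tested here, 7.59% of all genes tested, and 1151 of these had an unadjusted DESeq2 p under 0.05.

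**Figure D1:**
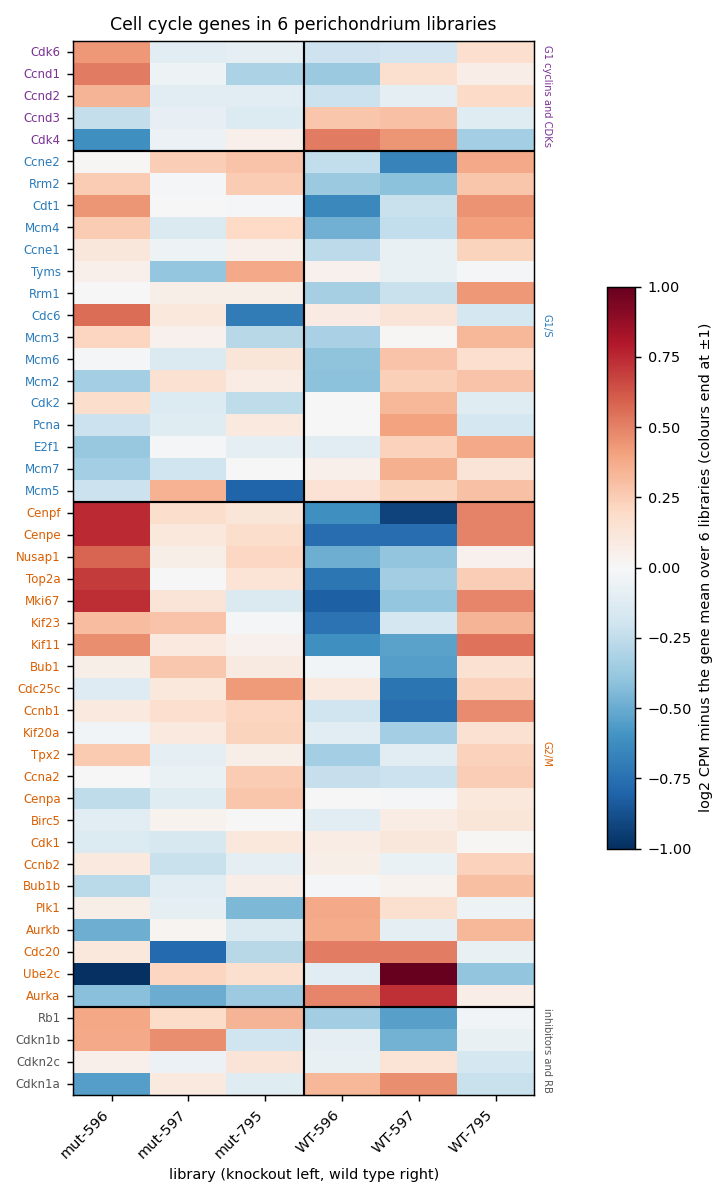
Each row is 1 of the 48 genes and each column 1 library, with colour giving log2 CPM minus the gene's mean over the 6 libraries. Within the G2/M block Cenpf, Cenpe, Top2a and Mki67 near the top are high in mut-596 and WT-795 and low in WT-596 and WT-597, Nusap1 is high in mut-596 and near its mean in WT-795, and the G1/S block has no column split by genotype.

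As a check of the labels, Fbn1 had 76, 45 and 69 counts in the knockout libraries and 1255, 898 and 458 in wild type, and it fell at a log2 fold change of -3.48 (SE 0.29, edgeR adjusted p = 1.03e-04). Total counts lay between 7209217 and 10316017 per library, and the lowest count of any member in any library was 15. Levels are given as CPM, counts scaled to a common library size with TMM factors, and levels of different genes are compared only per kilobase of exon (RPKM). Sex was not balanced between the groups: Xist, transcribed from the inactive X, reached 6221 counts in mut-596, 4024 in mut-597 and no more than 4 in any other library. WT-795 stands apart among the wild types, and values without it are given below.

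None of the G1 cyclins and kinases, which receive growth signals, passed the test, and their log2 fold changes ran from -0.44 to 0.17. In wild type Ccnd2, the gene of cyclin D2, was the highest per length at 44.7 ± 6.49 RPKM (SD, n = 3), above Cdk4 at 27.5 ± 8.08, Ccnd1 at 13.9 ± 2.59, Ccnd3 at 12.3 ± 1.89 and Cdk6 at 1.99 ± 0.307. Ccnd1 and Ccnd3 did not differ beyond their spread. Ccnd1, the gene of cyclin D1, was at 95.5, 64.3 and 53.5 CPM in knockout and at 51.5, 74.6 and 69.7 CPM in wild type, a log2 fold change of 0.12 (SE 0.25). The highest value was in mut-596, and the other knockout values lay within the wild-type range. Ccnd2 was at 543, 395 and 396 CPM in knockout and 369, 403 and 488 CPM in wild type, a log2 fold change of 0.08 (SE 0.23). Cdk6 was at 0.17 (SE 0.23) on the same scale, again with mut-596 the highest library at 39.4 CPM. The sign of all 3 of these small differences turned negative without mut-596, at -0.16, -0.10 and -0.05.

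Ccnd3 and Cdk4 were the members of this group below 0. Ccnd3, the gene of cyclin D3, was at 81.5, 91.2 and 87.7 CPM in knockout and 117, 118 and 88.7 CPM in wild type, a log2 fold change of -0.31 (SE 0.21). Cdk4, the kinase partner of the D cyclins, was at 48.9, 71.7 and 77.7 CPM in knockout and 107, 102 and 59.2 CPM in wild type, at -0.44 (SE 0.26, edgeR adjusted p = 0.503). In both genes WT-596 and WT-597 were above every knockout library, while WT-795 was inside the knockout range. Tspan31, on the opposite strand, overlaps 19.7% of the exon bases of Cdk4. The libraries keep no strand information, and how reads under both genes were counted is not stated, so the value of Cdk4 is uncertain.

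The 16 G1/S genes were split evenly around 0, with 8 above, 8 below and a median of 0.01 on the log2 scale. Their fold changes ran from -0.38 to 0.31, a narrower range than that of the G2/M genes. Their summed level was 309, 299 and 322 CPM in knockout and 263, 307 and 355 CPM in wild type, so that every knockout library lay between the lowest and highest wild-type libraries.

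Of the regulators of S phase entry, Ccne1 (cyclin E1) was at 9.24, 8.25 and 8.85 CPM in knockout and 7.12, 8.11 and 9.98 CPM in wild type, at 0.07 (SE 0.26). Ccne2 (cyclin E2) was at 24.8, 29.2 and 30.0 CPM in knockout and 20.8, 15.6 and 32.0 CPM in wild type, at 0.31 (SE 0.26). WT-795 was the highest library for both cyclin E genes. Their kinase gene Cdk2 was at -0.15 (SE 0.27). E2f1, the transcription factor released by RB, was at 7.79, 10.05 and 9.46 CPM in knockout and 9.40, 11.9 and 13.2 CPM in wild type, at -0.33 (SE 0.26). The origin licensing genes Cdc6 and Cdt1 were at 0.04 (SE 0.42) and 0.23 (SE 0.30), the former on only 15 to 29 counts per library.

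The 6 subunits of the MCM helicase, which unwinds DNA at origins, lay between 2.65 and 5.94 RPKM in wild type. Mcm7 was at 12.8, 14.1 and 16.2 CPM in knockout and 16.7, 20.8 and 17.7 CPM in wild type, at -0.36 (SE 0.23, edgeR adjusted p = 0.517). It was the G1/S gene whose groups did not overlap, by a gap of less than 1 CPM. Mcm5 was at 9.24, 13.6 and 6.17 CPM in knockout and 11.9, 12.5 and 13.2 CPM in wild type, at -0.38 (SE 0.29), with mut-597 above all wild types. Mcm2, Mcm3, Mcm4 and Mcm6 were at -0.09, -0.02, 0.18 and -0.05, so that the subunits had no common direction. Among the replication and nucleotide supply genes, Pcna, the sliding clamp of DNA polymerase, was at 35.3, 37.6 and 43.8 CPM in knockout and 41.1, 54.2 and 36.2 CPM in wild type, at -0.17 (SE 0.22). Rrm2, the regulated subunit of ribonucleotide reductase, was at 39.5, 32.8 and 39.4 CPM in knockout and 25.6, 24.9 and 40.2 CPM in wild type, at 0.31 (SE 0.24). Rrm1 and Tyms were at 0.04 and 0.07.

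**Figure D2:**
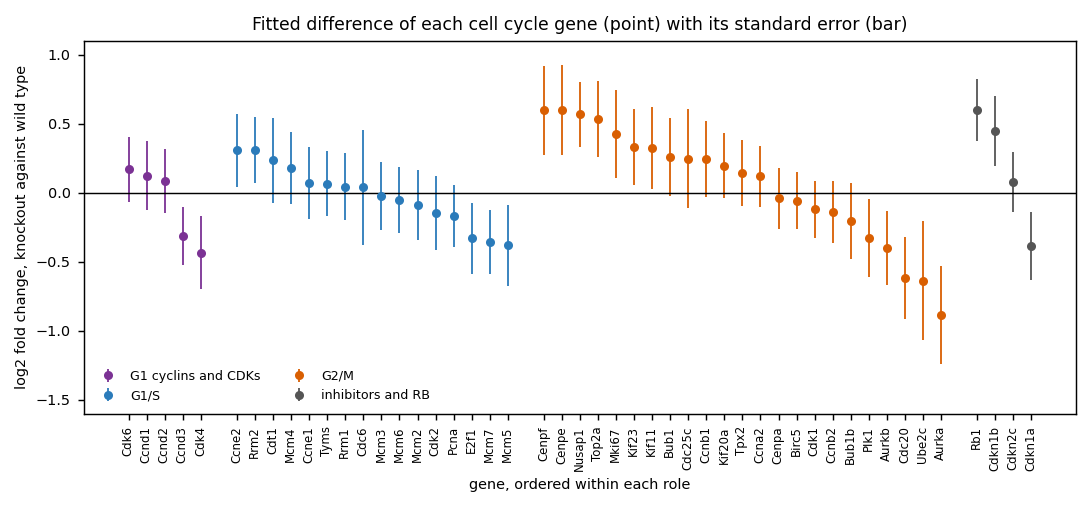
Points are edgeR log2 fold changes (knockout over wild type) of the 48 genes in their role groups, and bars are 1 standard error. The G1/S genes lie within -0.38 to 0.31, whereas the G2/M genes spread from -0.88 for Aurka to 0.60 for Cenpf.

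The 23 G2/M genes spread more widely, with 13 above 0, 10 below and a median of 0.14. The genes of the mitotic cyclin-kinase switch lay near 0. Cdk1, the kinase that drives mitosis, was at 29.7, 29.2 and 35.1 CPM in knockout and 34.3, 35.3 and 32.8 CPM in wild type, at -0.12 (SE 0.21). Ccna2 (cyclin A2) was at 0.12 (SE 0.22), Ccnb1 (cyclin B1) at 0.24 (SE 0.28), Ccnb2 (cyclin B2) at -0.14 (SE 0.23) and Cdc25c, the phosphatase that activates CDK1, at 0.25 (SE 0.36). Ccnb1 varied more between wild types, at 22.1, 15.1 and 35.2 CPM, than among knockouts, at 27.2, 28.6 and 29.5 CPM. Per length, Ccna2 and Ccnb2 were the highest of this switch in wild type, at 12.0 ± 2.35 and 11.7 ± 1.21 RPKM (SD, n = 3), and did not differ beyond their spread.

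Genes of chromosome structure, kinetochores and the spindle, a grouping made for this description after the values were seen, ran from -0.06 to 0.60, and none passed the test. Mki67, the gene of the proliferation antigen Ki-67, was at 102, 67.3 and 55.5 CPM in knockout and at 34.9, 47.0 and 86.2 CPM in wild type, at 0.43 (SE 0.32, edgeR adjusted p = 0.566). Top2a, the topoisomerase that untangles chromosomes, was at 114, 69.9 and 77.2 CPM in knockout and 42.5, 55.0 and 83.0 CPM in wild type, at 0.53 (SE 0.27, edgeR adjusted p = 0.478). In both genes mut-596 was the highest library and WT-795 the second highest, and the groups overlapped. The kinetochore genes Cenpe and Cenpf, which are named after their values were seen, had the same order of extremes. Cenpf was at 77.1, 52.0 and 50.1 CPM in knockout and 30.0, 24.2 and 64.9 CPM in wild type, and Cenpe at 42.3, 27.0 and 28.4 against 14.8, 14.8 and 35.5 CPM. Both were at 0.60. Nusap1, which bundles spindle microtubules, was at 40.9, 28.5 and 31.6 CPM in knockout and 19.5, 20.8 and 28.1 CPM in wild type, at 0.57 (SE 0.24, edgeR adjusted p = 0.459). Its groups were separate by less than 1 CPM, between mut-597 and WT-795. The motor genes Kif11, Kif20a and Kif23 were at 0.32, 0.19 and 0.33 and the spindle factor gene Tpx2 at 0.14. Birc5 (survivin) and Cenpa (the centromeric histone) were at -0.06 and -0.04.

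Genes of mitotic kinases, of the spindle checkpoint and of activators of the anaphase-promoting complex, grouped in the same way, ran from -0.88 to 0.26, and none passed the test. Aurka, the gene of the centrosomal kinase Aurora A, was at 2.38, 2.25 and 2.47 CPM in knockout and 4.46, 5.28 and 3.33 CPM in wild type, at -0.88 (SE 0.35, edgeR adjusted p = 0.459). All knockout libraries lay below all wild types, on 15 to 24 counts in knockout and 24 to 56 in wild type. Cdc20, which directs the anaphase-promoting complex to its substrates, was at 9.38, 5.10 and 7.20 CPM in knockout and 12.4, 12.5 and 8.31 CPM in wild type, at -0.62 (SE 0.30, edgeR adjusted p = 0.475), with WT-795 inside the knockout range. Aurkb (Aurora B) was at 7.13, 10.2 and 9.05 CPM in knockout and 12.9, 9.34 and 12.6 CPM in wild type, at -0.40 (SE 0.27). Plk1 (polo-like kinase) was at 6.87, 6.15 and 4.83 CPM in knockout and 8.55, 7.36 and 6.37 CPM in wild type, at -0.33 (SE 0.28). The spindle checkpoint genes Bub1 and Bub1b were at 0.26 and -0.21.

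**Figure D3:**
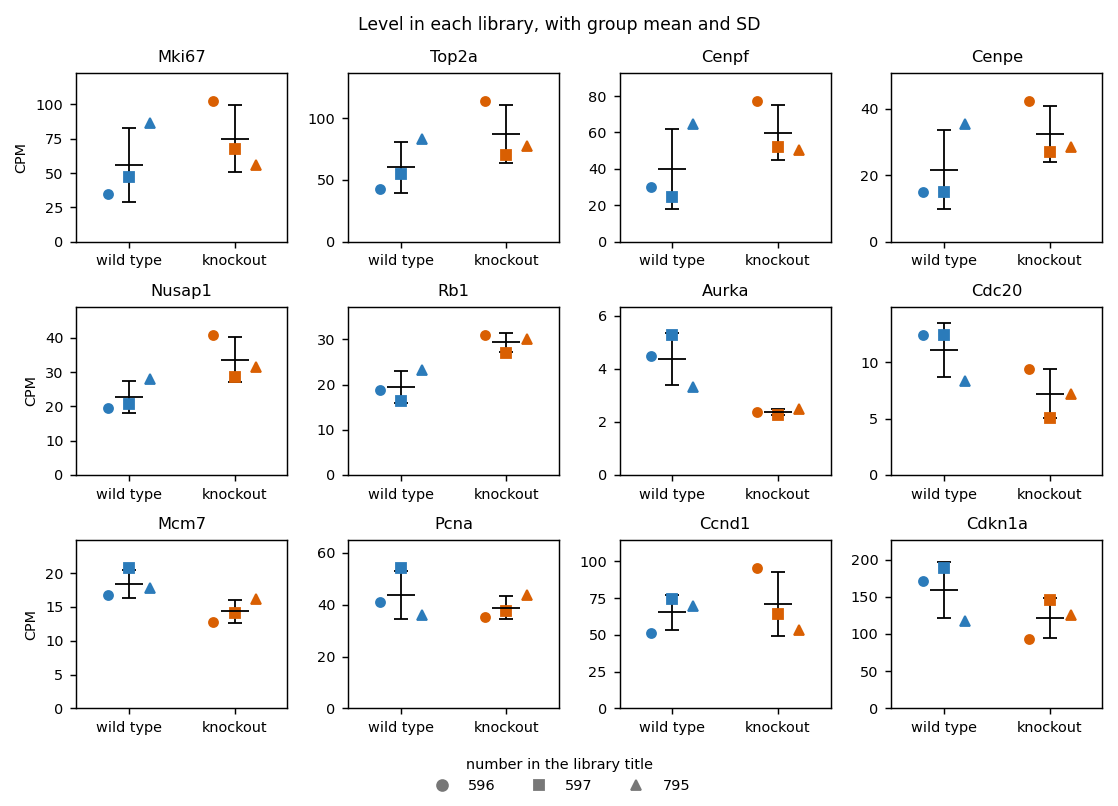
CPM of 12 of the genes in each library (points, with shapes for the number in the library title) and the group mean with its SD (bars), on axes that start at 0. The triangle of WT-795 lies with or near the knockout libraries for Mki67, Top2a, Cenpf, Cenpe, Aurka and Cdc20.

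Ube2c, named after its values were seen, stood apart from all other G2/M genes. It encodes the ubiquitin-conjugating enzyme of the anaphase-promoting complex, and it was at 223, 596.3 and 573 CPM in knockout and 476, 1297 and 391 CPM in wild type, a wild-type level of 277 RPKM beside 12.0 RPKM for the next G2/M gene, Ccna2. It made up between 24.7% and 74.9% of the summed G2/M level of a library. Its annotated exons (chr2:164769898-164778822, plus strand) overlap those of Tnnc2, the troponin C gene of fast skeletal muscle (chr2:164777161-164779967, minus strand), over 592 bases, 22.8% of the Ube2c exon bases. Tnnc2 was at 199, 526 and 490 CPM in knockout and 409, 1177 and 341 CPM in wild type, and the ratio of Ube2c to Tnnc2 counts lay between 1.102 and 1.17 in all 6 libraries. Acta1, the skeletal muscle actin gene, was likewise lowest in mut-596 and highest in WT-597, at 677 and 4503 CPM. The libraries keep no strand information, so reads in the shared exon bases cannot be assigned to either gene by strand. How they were counted is not stated, and the Ube2c value is uncertain. Without Ube2c the G2/M sum was 679, 538 and 563 CPM in knockout and 421, 435 and 647 CPM in wild type, with WT-795 within the knockout range, and the median log2 fold change was 0.17. Other members with over 10% of their exon bases under another gene were Kif20a (29.3%), Ccnd1 (23.4%), Ccne2 (17.4%), Cdc25c (12.7%) and Ccna2 (12.5%), beside Cdk4, and their values carry the same uncertainty. Rb1 shares 8.1% of its exon bases with Rcbtb2 and 6.8% with Lpar6, both on the opposite strand, so its value is uncertain too. Further members have such overlaps, among them Cdkn1a (7.7%), Mcm7 (7.3% with Ap4m1), Nusap1 (4.2%) and Ccnd2 (4.0% with Gm43126). Their values are likewise not free of this uncertainty.

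**Figure D4:**
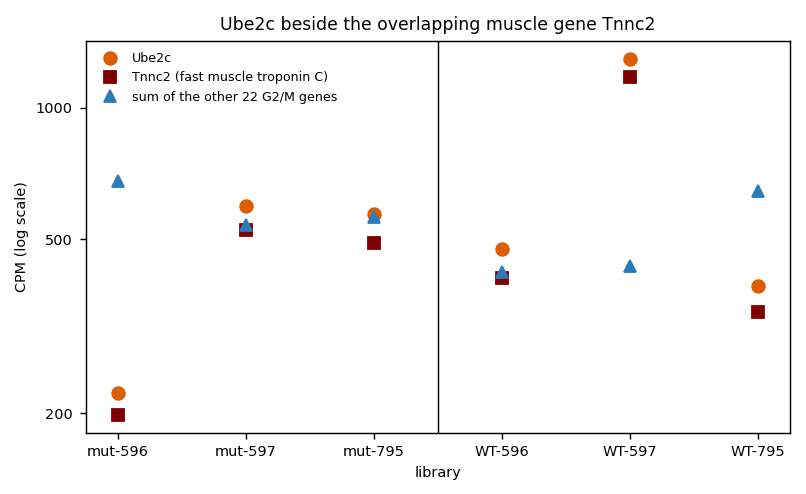
CPM on a log scale of Ube2c, of Tnnc2 and of the sum of the other 22 G2/M genes in each library. Ube2c and Tnnc2 are both lowest in mut-596, at 223 and 199 CPM, and both highest in WT-597, at 1297 and 1177 CPM, while the other G2/M genes sum to 679 and 435 CPM there.

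The inhibitors and brakes had 3 members above 0 and 1 below. Rb1, the gene of the retinoblastoma protein that holds E2F factors in check, was at 31.0, 27.0 and 30.1 CPM in knockout and at 18.7, 16.3 and 23.3 CPM in wild type. Every knockout library lay above every wild type, at a log2 fold change of 0.60 (SE 0.22, unadjusted p = 0.0175, edgeR adjusted p = 0.459). Cdkn1b, the gene of the CDK2 inhibitor p27, was at 20.9, 22.2 and 14.0 CPM in knockout and 15.0, 11.6 and 15.2 CPM in wild type, at 0.44 (SE 0.25), with mut-795 inside the wild-type range. Cdkn1a, the gene of p21 and a target of p53, was at 93.4, 146 and 125 CPM in knockout and 172, 189 and 117 CPM in wild type, at -0.39 (SE 0.25). Cdkn2c, the gene of the CDK4 and CDK6 inhibitor p18, was at 21.1, 19.5 and 22.2 CPM in knockout and 19.3, 22.4 and 18.0 CPM in wild type, at 0.07 (SE 0.22). In wild type Cdkn1a was the highest of the 4 per length, at 44.7 ± 10.5 RPKM (SD, n = 3), and Cdkn2c followed at 7.40 ± 0.833, while Rb1 and Cdkn1b, at 3.23 ± 0.588 and 3.07 ± 0.447, did not differ beyond their spread.

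The direction of the members went with the base composition of their transcripts. All 12 members with a transcript GC content under 45% lay above 0, with a median log2 fold change of 0.38, and 14 of the 18 with 50% or more lay below 0, with a median of -0.33. All genes tested had the same trend: 85.4% of those under 45% GC lay above 0 (median 0.32), and 24.3% of those at 50% or more did (median -0.27). Across the 48 members Spearman's rho between log2 fold change and GC content was -0.76, across the 23 G2/M genes -0.88, across the 16 G1/S genes -0.40 and over all 15701 genes with a GC value -0.62. These are correlations across genes that share the same 6 libraries, and genes are not independent replicates. Aurka (51.4% GC) and Cdc20 (55.6%) have GC-rich transcripts, and Cenpf (43.3%), Cenpe (42.9%), Nusap1 (41.8%) and Rb1 (41.2%) do not.

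The same trend separated libraries within the wild-type group. Relative to the mean of the 6 libraries, the median gene under 45% GC was at 0.23, 0.09 and 0.18 in knockout, at -0.24 and -0.38 in WT-596 and WT-597, and at 0.15 in WT-795 on the log2 scale. The 12 members under 45% GC were at 0.38, 0.14 and 0.16 in knockout and at -0.34, -0.53 and 0.31 in wild type. WT-795 thus lay on the knockout side for GC-poor genes as a whole and for these members. For all genes at 50% GC or more it was also on that side, at -0.08. For the 18 members at 50% or more it was not. They were at -0.25, -0.05 and -0.11 in knockout and at 0.02, 0.22 and 0.10 in wild type.

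With each library's trend on GC content removed before the test, 36 of the 48 members were nearer 0 and 12 were farther from it. Rb1 was then at 0.27 (SE 0.18), Nusap1 at 0.26 (SE 0.19), Top2a at 0.31 (SE 0.22), Cdc20 at -0.26 (SE 0.28), Cdkn1a at -0.11 (SE 0.19) and Cdk4 at -0.20 (SE 0.21), and 9 members had the opposite sign: Ccnd3, Ccne2, E2f1, Mcm2, Mcm3, Rrm1, Tyms, Plk1 and Bub1. Aurka was at -0.74 (SE 0.32), Cenpf at 0.40 (SE 0.26), Cenpe at 0.38 (SE 0.26) and Mki67 at 0.35 (SE 0.29), while Cdkn2c (58.0% GC) was at 0.48 (SE 0.21). Cdt1, Ccnd1, Ccne1 and Pcna were also farther from 0 than before, at 0.58, 0.24, 0.25 and -0.33. The median of the G2/M genes was 0.02 and that of the G1/S genes 0.00. Spearman's rho between log2 fold change and GC content was then -0.03 over all genes and -0.24 across the 48 members. Across the G2/M genes it was still -0.66, so their corrected values still went with GC content, and across the G1/S genes it was 0.39. The reason for this was not tested. No member passed the edgeR test after the correction, and 2 had an unadjusted p under 0.05, Aurka below 0 and Cdkn2c above, against 5.91% of all genes in the same fit. Across the G2/M genes a rank correlation with exon length, which was 0.79 before the correction, was 0.72 after it, beside 0.28 and 0.19 over all genes and -0.25 and -0.34 across the G1/S genes, with the long genes Cenpf, Mki67 and Cenpe at the top and the short genes Cdc20 and Aurka at the bottom.

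**Figure D5:**
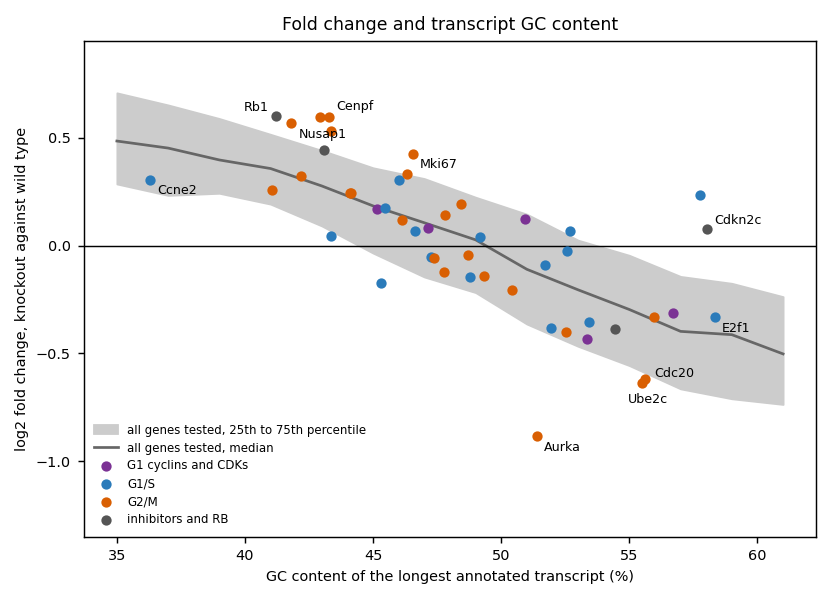
Log2 fold change (knockout over wild type) plotted against GC content of the longest annotated transcript for the 48 genes (coloured by role), over the median and the 25th to 75th percentiles of all genes tested in steps of GC content (grey). The members as a set follow the grey trend down from left to right. Aurka, at -0.88 and 51.4% GC, lies well under it. Cdt1, at 0.23 and 57.8% GC, and Cdkn2c, at 0.07 and 58.0% GC, lie above the grey band.

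Single libraries moved the G2/M values in both directions. Without mut-596, Mki67 was at 0.12, Top2a at 0.28, and Cenpf and Cenpe both at 0.35, and without WT-596 Mki67 was at 0.17, Top2a at 0.33, Cenpf at 0.43 and Cenpe at 0.38. Without WT-597 Mki67 was at 0.31, Cenpf at 0.33 and Cenpe at 0.37. None of these passed. Without WT-795 edgeR called 3 of the 48 members over all genes tested, Top2a, Cenpe and Cenpf, all G2/M genes and all higher in knockout, against 9.08% of all genes called in either direction, 3.35% higher and 5.73% lower. Cenpf and Cenpe were then both at 1.12 (SE 0.25, edgeR adjusted p = 0.0185 and 0.0200) and Top2a at 0.82 (SE 0.25, edgeR adjusted p = 0.0488). Mki67, at 0.86 (SE 0.26), had an edgeR adjusted p of 0.0523, and Kif11, Rb1 and Nusap1 had 0.0541, 0.0535 and 0.0594. Cdk4 was at -0.68 (SE 0.23), Ccne2 at 0.60 (SE 0.24) and Rrm2 at 0.54 (SE 0.22), and none of these passed either (edgeR adjusted p = 0.0656, 0.106 and 0.111). The G2/M median was 0.29 and the G1/S median 0.03. Without any other single library no member passed. The share of members called, 6.25%, was below the 9.08% of all genes called in either direction in the same fit. All 3 were higher in knockout, and the share was above the 3.35% of all genes called higher.

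Of 141 further cell cycle genes, 139 were tested and none passed by edgeR with all 6 libraries. At an unadjusted p under 0.05, 8 were above 0 and 5 below, 9.35% of those tested, beside the 10.5% of all genes given above. Among 48 further genes of G1/S and replication, 30 lay above 0 and 18 below (median 0.22). The origin kinase gene Cdc7 was at 0.97 (SE 0.40), the helicase gene Brip1 at 0.82 (SE 0.34) and Pold1, the catalytic subunit of DNA polymerase delta, at -0.84 (SE 0.31). Among 55 tested further genes of G2/M, 38 lay above 0 and 17 below (median 0.21). The condensin genes Ncapg and Ncapd2 were at 0.70 (SE 0.25) and -0.79 (SE 0.34), on transcripts of 34.8% and 54.0% GC, and the abscission gene Cep55 was at 0.84 (SE 0.30). Cep55 was at 9.90, 7.80 and 5.66 CPM in knockout and 4.56, 4.15 and 4.30 CPM in wild type, and here WT-795 lay with the other wild types.

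Among 36 tested further regulators, 17 lay above 0 and 19 below (median -0.01). Gadd45g, a growth arrest gene, was at -1.38 (SE 0.50), Lin37, a subunit of the MuvB complex, at -1.13 (SE 0.45) and Trp53, the gene of p53, at -0.78 (SE 0.30), each with an edgeR adjusted p of 0.459. Trp53 was at 10.4, 10.5 and 9.36 CPM in knockout and 21.0, 21.1 and 9.56 CPM in wild type, so that WT-596 and WT-597 were near 21 CPM and WT-795 was inside the knockout range. Without WT-795, 13 of the 139 tested passed by edgeR, 9.35% beside 9.08% of all genes. Of these, 10 were higher and 3 lower, whereas 3.35% of all genes were called higher and 5.73% lower. The lower ones were Trp53, Lin37 and Gadd45g. With the GC trend removed the medians of the G1/S, G2/M and regulator lists were 0.07, 0.07 and -0.09.

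Which cells carried these transcripts cannot be read from bulk tissue, where fewer cells of a type and less RNA per cell cannot be told apart. The perichondrial and fibroblast markers Postn, Col1a1, Prrx1, Dcn and Thbs2 were all present, with a summed level of 11097 to 12840 CPM in knockout and 12399 to 17401 CPM in wild type. Col1a1 was the highest of the 5 in every library, at a log2 fold change of -0.58, while Postn, Prrx1, Dcn and Thbs2 were at 0.17, 0.49, 0.24 and 0.23, and none of the 5 passed. Tendon markers (5 of 5) summed to 490, 519 and 613 CPM in knockout and 869, 658 and 650 CPM in wild type, without overlap. Fmod and Thbs4 were lower in every knockout library than in any wild type, as were 6.22% of all genes tested. Tnmd and Mkx were near a log2 fold change of 0. Scx was at -0.66, at 12.7, 24.3 and 25.1 CPM in knockout and 31.7, 42.5 and 23.8 CPM in wild type. None of the 5 passed. The transcripts of Scx, Fmod and Thbs4 have 61.3%, 53.7% and 53.9% GC, and those of Tnmd and Mkx 43.0% and 43.2%. Schwann cell markers (3 of 3) summed to 41.5, 35.1 and 14.2 CPM in knockout and 12.3, 19.1 and 6.51 CPM in wild type. Chondrocyte markers (5 of 5 above 0 in each library) summed to 198 to 257 CPM in knockout and 261 to 344 CPM in wild type. These sums did not overlap either and were highest in WT-795. The 5 genes had no common direction and none passed. Acan and Col2a1 were at log2 fold changes of -0.54 and -0.49, and Sox9, Col9a1 and Matn1 at 0.20, 0.38 and 0.61. Acan, too, was lower in every knockout library than in any wild type. Matn1 had only 6 to 25 counts per library. Skeletal muscle and myoblast markers (6 of 6) summed to 817 to 2075 CPM in knockout and 1404 to 5090 CPM in wild type. Erythroid markers (4 of 4) ranged from 2630 to 19547 CPM in knockout and 5730 to 18492 CPM in wild type. Markers of granulocytes and their precursors summed to 24.3 to 71.6 CPM in knockout and 19.9 to 34.1 CPM in wild type, with Elane at 0 in 5 of 6 libraries. Osteoblast markers summed to 1617 to 2205 CPM in knockout and 1842 to 2230 CPM in wild type. Hypertrophic chondrocyte markers summed to 18.9 to 33.7 CPM in knockout and 18.1 to 46.4 CPM in wild type. For macrophage markers the sums were 66.7 to 74.2 CPM and 66.9 to 92.3 CPM. For endothelial markers they were 115 to 150 CPM and 109 to 143 CPM, in the same order. The part of these cell types in the cell cycle values was not tested.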

How the data were processed

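Libraries were prepared with SMART-Seq v4 and Nextera XT after a micro column extraction, per the labels' protocols; this PCR-based chemistry keeps no strand information. The authors deposited raw counts per gene, on GRCm38.p6 per the submitters' processing notes, which also name DESeq2; the sources used here give no counting settings. A second deposited table holds log2 fold changes, whose base was judged from their match to a DESeq2 fit. Groups came from the labels. Symbols, exon lengths, overlaps and GC content (longest transcript) came from GENCODE M21, and promoters from RefSeq.

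The main test was edgeR 4.0.16 (glmQLFit, glmQLFTest, R 4.3.3) on all genes passing filterByExpr, with TMM scaling, no covariate, two-sided, threshold 0.05 after Benjamini-Hochberg adjustment. SE is the fold change over the square root of F. The fit was tested on simulated data. RPKM is TMM-scaled CPM per kilobase of exon. Alternatives were RLE and upper-quartile scaling, no filter, a CPM minimum of 5, DESeq2 1.42.0, limma-voom 3.58.1, each library left out, a block on title numbers, a loess correction on GC content (span 0.5), and a covariate for libraries with over 100 Xist counts. Reads carry no molecular identifiers.

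Named genes were a fixed set of 24 members, any member past the threshold, the 3 with the smallest p in each role and further list, and Fbn1. Members, lists and rules were chosen with earlier results of these data known.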

Additional observations from a re-analysis of the deposited data

How the results depend on the processing

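The count of members past the threshold was 0 under every alternative other than leaving out a library, where it ranged from 0 to 3, with 3 only without WT-795. Over all genes edgeR called 1, but 33 higher and 237 lower with no filter, 7 higher and 5 lower without mut-795, 1517 without WT-795, 3 higher and 1 lower with block and GC correction and 0 with the Xist covariate; the stricter filter left Aurka, Cdc6 and Cdc25c untested. Leaving out each library gave medians of -0.14 to 0.03 for G1/S and 0.03 to 0.29 for G2/M genes. Signs of small, uncalled differences changed as follows. With the GC correction, Plk1 was at 0.016, Ccne2 at -0.11, E2f1 at 0.037, Mcm2 at 0.047 and Ccnd3 at 0.049. With the Xist covariate, under which mut-795 is the only knockout compared directly with wild type, Mki67 was at -0.0084, Cdk1 at 0.039, Mcm2 at 0.0037, Ccnd1 at -0.29, Ccnd2 at -0.087 and Cdk6 at -0.025, and Fbn1 had an edgeR adjusted p of 0.104. Over single libraries left out, Ccnb1 ranged from -0.020 to 0.59, Ccne1 from -0.043 to 0.19, Mcm2 from -0.29 to 0.031, Ccnd1 from -0.16 to 0.29, Ccnd2 from -0.10 to 0.19, Cdk6 from -0.049 to 0.28, Cdkn2c from -0.0056 to 0.15 and Ube2c from -0.94 to 0.075. Title numbers are shared between groups, but same-numbered libraries deviated together in 1 of 3 pairs (r = -0.18, 0.24 and -0.20 across 15712 genes), so they were not treated as pairs, and not every library correlated best with its own number (mut-596 with WT-795, r = 0.38). With the replicate block 0 members passed, and with the block and the GC correction together Plk1 was at 0.011, Ccne2 at -0.11, E2f1 at 0.064, Mcm2 at 0.068, Ccnd3 at 0.049 and Cdk6 at -0.0031. Counts of 15 to 56 limit Aurka and 15 to 29 limit Cdc6.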
